A study of Mus musculus with 18 samples.

Results

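Slc13a3, Cbr2, Rai14, Lrp12, Pde7b and Stat4 are 6 genes of varied function that were among the largest differences between the plasma groups of this array series. They were picked from 24705 rows that carry exactly 1 gene symbol, and each of the 6 has 1 row (probe sets are named by Entrez gene ID: 114644 for Slc13a3, 12409 for Cbr2, 75646 for Rai14, 239393 for Lrp12, 29863 for Pde7b and 20849 for Stat4). Their group differences were used to pick them, so those differences are described here without a test. The choice had no numerical threshold. The difference between the highest and the lowest group mean ranged from 1.72 log2 units (Rai14, the 299th of 24705 rows) to 3.25 (Slc13a3, the 14th).

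The cells were macrophages grown from the bone marrow of mouse femurs in medium with M-CSF (30 ng/mL), the factor that drives their differentiation. On day 4 the medium was changed to one with 10% mouse plasma, and RNA was taken 48 hours later. The 4 WT arrays had plasma of wild-type C57BL/6J mice, the 5 ApoE arrays plasma of ApoE-KO mice, the 3 AS1 arrays plasma of ApoE-Stab1-KO mice and the 6 AS2 arrays plasma of ApoE-Stab2-KO mice. All plasma donors had been on a Western diet for 8 weeks, so there is no group without it. Each knockout belongs to the plasma donor, and the labels give no genotype for the macrophages. ApoE is a lipoprotein component, and stabilin-1 and stabilin-2, made by Stab1 and Stab2, are scavenger receptors. The labels leave unsaid whether the arrays of a group came from separate cultures or plasma donors, nor the donors' age or sex.

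Slc13a3 makes a sodium-coupled transporter that carries dicarboxylates such as succinate into cells, and Cbr2 a carbonyl reductase of the short-chain dehydrogenase family that is also used as a marker of some tissue-resident macrophages. Rai14 makes an actin-associated protein with ankyrin repeats and a coiled coil, and Lrp12 a membrane protein of the low-density lipoprotein (LDL) receptor family. Pde7b makes a phosphodiesterase that degrades cyclic AMP, a messenger that restrains inflammatory responses of macrophages, and Stat4 a transcription factor that is activated by interleukin-12 and, in some cells, by type I interferon.

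Of 10 macrophage markers 8 had a row, and all 8 lay above the median value of all rows, 4.37, on every array. Among 13 neutrophil markers, 11 did so, against 4 of 15 T and NK cell markers, 1 of 8 dendritic cell markers, 4 of 8 osteoclast markers and 1 of 8 stromal cell markers. The mean log2 level of the neutrophil list was 7.50 to 7.84 in WT arrays, 7.51 to 8.55 in ApoE, 9.25 to 9.48 in AS1 and 6.86 to 7.57 in AS2. In the same order of groups, the macrophage list was at 11.47 to 11.50, 10.95 to 11.16, 11.32 to 11.43 and 11.05 to 11.13. In these cultures, fewer cells of a type and less RNA per cell cannot be told apart. Within groups, the correlation of 2 arrays over all genes, which are not replicates, was 0.990 to 0.998.

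**Figure D1:**
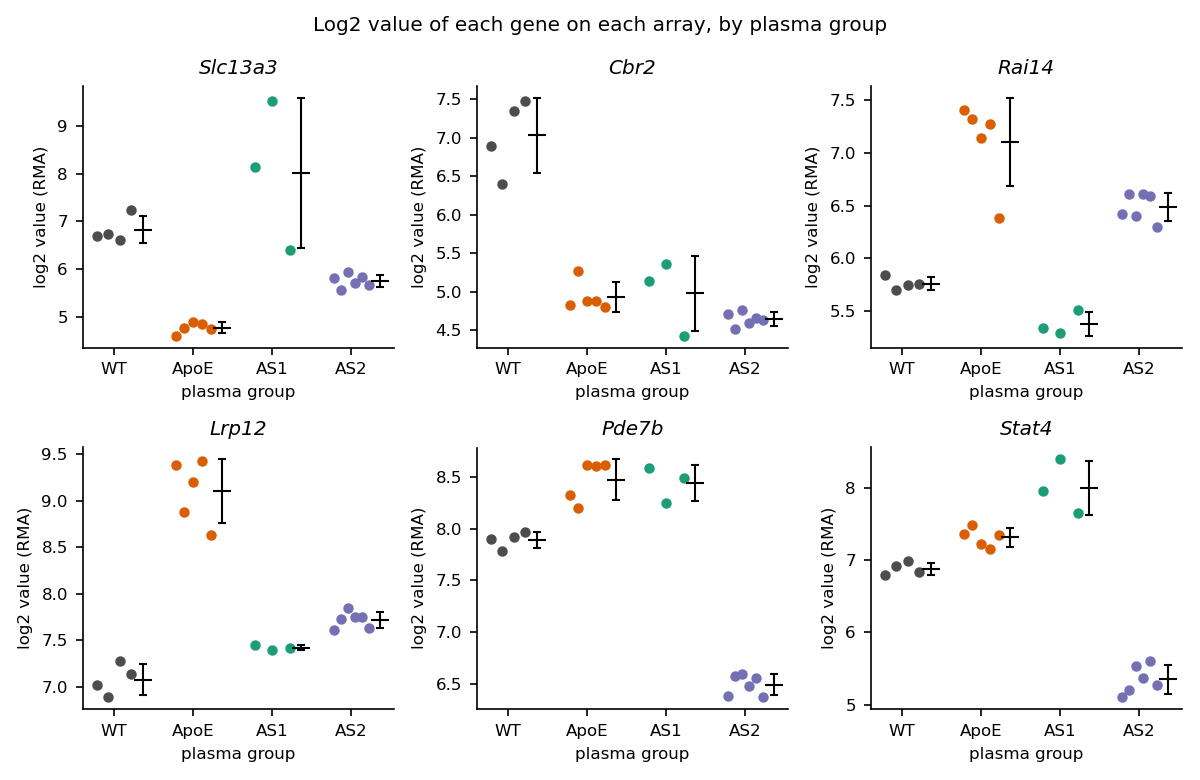
Each panel shows the log2 value (RMA) of 1 gene on all 18 arrays (points, by plasma group), with the group mean and SD at the right of each group. Slc13a3 is spread from 6.40 to 9.54 over the 3 AS1 arrays, Cbr2 is high in WT alone, Rai14 and Lrp12 are highest in ApoE, and Pde7b and Stat4 are lowest in AS2.

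The RefSeq table of promoters (GRCm38.p6) held 5 of the 6 genes, with 7 start sites. The 250 bases before the start are shown for Slc13a3 and Cbr2, because both were lower in ApoE than in WT, and further on for Pde7b and Stat4, because both were lowest with AS2 plasma. Capitals mark matches, on either strand, to 8 motifs: the TATA box TATAAA, the GC box GGGCGG, the CCAAT box CCAAT, the PU.1 site GAGGAA, the AP-1 site TGANTCA, the core of the cyclic AMP element TGACG, the amino acid response element TGATGNAA and the STAT site TTCNNNGAA. No capital stretch in the 4 sequences belongs to more than 1 match.
Slc13a3, chr2:165473198-165473447, minus strand: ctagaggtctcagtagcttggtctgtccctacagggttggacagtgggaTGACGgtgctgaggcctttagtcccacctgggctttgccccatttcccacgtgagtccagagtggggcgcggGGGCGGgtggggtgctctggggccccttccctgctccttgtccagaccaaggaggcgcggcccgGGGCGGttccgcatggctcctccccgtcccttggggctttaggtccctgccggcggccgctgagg
Cbr2, chr11:120732022-120732271, minus strand: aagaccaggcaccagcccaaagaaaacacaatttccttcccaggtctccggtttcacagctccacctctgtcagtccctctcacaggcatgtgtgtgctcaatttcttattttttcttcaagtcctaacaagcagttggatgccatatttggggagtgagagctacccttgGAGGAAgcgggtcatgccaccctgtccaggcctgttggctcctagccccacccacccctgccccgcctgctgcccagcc
Slc13a3 had 2 GC boxes, a motif found in 32.7% of 32851 promoters of this length, and 1 cyclic AMP element core, found in 17.8%. Its 250 bases were 67.6% G or C, against 55.6% for Cbr2. Cbr2 had 1 PU.1 site, from base -79 to base -74 counted from the start, a motif found in 23.3% of promoters. These are matches of letters and not measured sites.

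Slc13a3 was lowest with ApoE plasma and had its highest values with AS1 plasma, where the arrays differed widely from each other. It was 6.70, 6.73, 6.62 and 7.24 on the WT arrays, and 4.60, 4.76, 4.90, 4.85 and 4.74 on the ApoE arrays. With AS1 plasma it was 8.13, 9.54 and 6.40, and with AS2 plasma it ranged from 5.57 through a median of 5.76 to 5.93. The ApoE and AS2 arrays formed tight, separate bands, and AS1 replicate 3 lay below all WT arrays whereas AS1 replicates 1 and 2 lay above them.

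The group means of Slc13a3 were 6.82 ± 0.28 (SD, n = 4) in WT, 4.77 ± 0.11 (SD, n = 5) in ApoE, 8.02 ± 1.57 (SD, n = 3) in AS1 and 5.75 ± 0.13 (SD, n = 6) in AS2. From low to high the order was ApoE, AS2, WT, AS1. Only the neighbours WT and AS1 overlapped. Slc13a3 was 4.16-fold lower with ApoE than with WT plasma and 9.53-fold higher with AS1 than with ApoE plasma, the largest difference of all rows in that direction. With each array left out in turn, the AS1 minus ApoE difference of 3.25 log2 units ranged from 2.50, without AS1 replicate 2, to 4.06, without AS1 replicate 3. The AS2 minus AS1 difference of -2.27 likewise ranged from -3.08 to -1.52.

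The SD of Slc13a3 within AS1 was the largest of all 24705 rows, where the median SD was 0.083 and the 99th percentile 0.411. Its lowest and highest AS1 arrays stood 8.79-fold apart, against 1.54-fold in WT, 1.23-fold in ApoE and 1.28-fold in AS2. The next largest AS1 spreads were those of Cd55, a membrane protein that limits complement, at 5.88, 7.58 and 5.03, and of the scavenger receptor gene Marco, at 9.04, 9.62 and 7.44 in replicates 1, 2 and 3. These neighbours were named after their values were seen. All 3 genes were highest in AS1 replicate 2 and lowest in replicate 3. Of the 50 rows with the largest AS1 spread, 29 had this order, against 17.0% of all rows. The order is that of the 3 genes, which are among the 50, and all rows come from the same 3 arrays. The count therefore carries no support. The neutrophil list had another order, with mean levels of 9.48, 9.25 and 9.28 in AS1 replicates 1, 2 and 3. The macrophage list had the order of Slc13a3 over a narrow range, at 11.38, 11.43 and 11.32. The part of an array, a culture or the level of these lists in the spread of Slc13a3 was not tested.

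**Figure D2:**
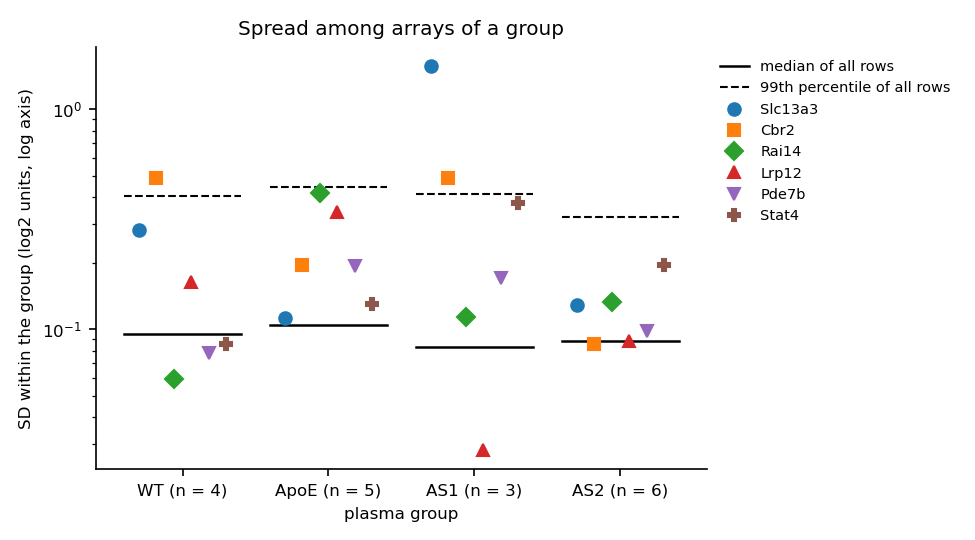
Points give the SD among the arrays of a plasma group (log2 units, log axis) for each of the 6 genes, with the median (solid line) and 99th percentile (dashed line) of all 24705 rows in that group. Slc13a3 in AS1, at 1.57, lies far above the dashed line at 0.411, and in AS2 all 6 genes lie below the dashed line of that group.

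The 3 genes nearest to Slc13a3, by the root mean square difference of log2 values over 18 arrays after each gene was centred on its own mean, were Tmem176a (0.609), Cd55 (0.630) and Tmem176b (0.670). Tmem176a and Tmem176b encode related membrane proteins of myeloid cells. Tmem176a had group means of 9.44 in WT, 7.27 in ApoE, 9.72 in AS1 and 8.32 in AS2, the same order of groups as Slc13a3. Cd55 was at 4.88, 4.28, 6.17 and 4.21 in that order of groups. Of the other pairs among the 6 genes, Slc13a3 was nearest to Cbr2, at 1.24.

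The other genes of the Slc13 family had low values and passed no test, and genes of the citric acid cycle moved in both directions. Slc13a1, Slc13a2, Slc13a4 and Slc13a5, the other transporters of the family, had group means between 3.67 and 4.29, and no difference among them passed the test (limma adjusted p from 0.162 to 0.996). Sucnr1, the receptor for extracellular succinate, was between 3.71 and 3.75. The means of these transporters and of Sucnr1 all lay below the median value of all rows, 4.37, so a change in them could have gone unseen. Of 31 listed genes of the rest of the Slc13 family, dicarboxylate transport and the citric acid cycle, 30 had a row. In ApoE against WT, 7 of 30 rose and 4 fell, where 8.54% of all rows rose, 8.36% fell and 16.9% passed in either direction. Among rows above the 40th percentile of row means 28.8% passed. The median difference of the list was 0.02, against -0.0036 over all rows.

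In AS1 against ApoE, 4 of 30 rose and 10 fell (median -0.07), where 7.74% of all rows rose, 8.8% fell, 16.5% passed in either direction and 29.3% passed above the 40th percentile. Idh3a, a subunit of the mitochondrial isocitrate dehydrogenase, fell by 1.04 ± 0.16 (SE) log2 units (limma adjusted p = 0.00019). The mitochondrial dicarboxylate carrier gene Slc25a10 rose by 0.77 ± 0.13 (adjusted p = 0.000376), having fallen by 0.48 in ApoE against WT (adjusted p = 0.00756). Acod1, whose enzyme makes the dicarboxylate itaconate, fell by 0.74 ± 0.088 in ApoE against WT (adjusted p = 8.24e-06). Acod1 rose by 0.39 in AS1 against ApoE and fell by 0.32 in AS2 against ApoE (adjusted p = 0.00843 and 0.00885). The means of Acod1 were 5.21 in WT, 4.47 in ApoE, 4.85 in AS1 and 4.15 in AS2. The last lay below the median value of all rows, 4.37. AS1 and AS2 were each compared with the same ApoE arrays, so their differences share that control. The ApoE against WT difference holds these arrays with the opposite sign. Opposite changes in it and against ApoE are thus partly tied, here and for the genes below.

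In AS2 against ApoE, 5 of 30 rose and 3 fell, where 7.59% of all rows rose, 8.02% fell, 15.6% passed in either direction and 27% passed above the 40th percentile. The citrate synthase gene Cs rose by 0.33 ± 0.063 (limma adjusted p = 0.00112). In AS2 against AS1, 10 rose and 3 fell, where 11.5% of all rows rose, 10.6% fell, 22.1% passed in either direction and 37.9% passed above the 40th percentile. Idh3a rose there by 1.29 ± 0.16 (adjusted p = 8.52e-06).

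Cbr2 was high with WT plasma and low with the plasma of each knockout donor. It was 6.90, 6.40, 7.34 and 7.48 on the WT arrays, and 4.82, 5.27, 4.88, 4.87 and 4.80 on the ApoE arrays. With AS1 plasma it was 5.14, 5.37 and 4.43, and with AS2 plasma it ranged from 4.52 through 4.65 to 4.76. Every WT array was above every other array.

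The means of Cbr2 were 7.03 ± 0.49 (SD, n = 4) in WT, 4.93 ± 0.20 (SD, n = 5) in ApoE, 4.98 ± 0.49 (SD, n = 3) in AS1 and 4.64 ± 0.09 (SD, n = 6) in AS2. Against WT, Cbr2 was 4.29-fold lower in ApoE, 4.14-fold lower in AS1 and 5.22-fold lower in AS2. The order from low to high was AS2, ApoE, AS1, WT. AS1 overlapped with both ApoE and AS2, and ApoE lay above AS2 by a gap of 0.04 log2 units. ApoE replicate 2 held the highest ApoE value, 5.27. The SD of Cbr2 in WT was the 97th largest of all rows, and that in AS1 the 112th. Its AS1 arrays had the order of those of Slc13a3, with replicate 2 highest and replicate 3 lowest.

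The genes nearest to Cbr2 were Nxpe4 (0.360), the membrane metalloproteinase gene Mmp14 (0.395) and the C-type lectin gene Clec4b1 (0.399). Nxpe4 had means of 7.33 in WT, 5.60 in ApoE, 6.03 in AS1 and 5.14 in AS2. Mmp14 was at 6.94, 5.51, 5.19 and 4.71 in the same groups.

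Among the carbonyl reductases, Cbr3 had a similar step between WT and the other groups. It was 5.92 in WT, 4.88 in ApoE, 4.91 in AS1 and 4.98 in AS2, and fell by 1.04 ± 0.13 (SE) log2 units in ApoE against WT (limma adjusted p = 1.98e-05). Between ApoE and either AS1 or AS2, Cbr3 had adjusted p = 0.935 and 0.706. Cbr1 was 6.94 in WT and 6.75 in ApoE (adjusted p = 0.376). Cbr4 was 5.33 in AS1 and 5.81 in AS2, a rise of 0.48 (adjusted p = 0.00268), and 5.74 and 5.61 in WT and ApoE (adjusted p = 0.54).

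Of 30 listed carbonyl reductases and other short-chain dehydrogenases, 29 had a row. In ApoE against WT 4 rose and 5 fell, in AS1 against ApoE 4 rose and 4 fell, in AS2 against ApoE 6 rose and 1 fell, and in AS2 against AS1 13 rose and 4 fell. The list's median differences were -0.02, -0.07, 0.09 and 0.14 in that order. The shares called, 31.0%, 27.6%, 24.1% and 58.6%, stand beside 28.8%, 29.3%, 27% and 37.9% of rows above the 40th percentile, so the first 3 are near that background. Hpgd, which inactivates prostaglandins, fell by 1.40 ± 0.13 in ApoE against WT and rose by 1.16 ± 0.15 in AS1 against ApoE (limma adjusted p = 7.07e-07 and 2.74e-05). The retinol dehydrogenase gene Dhrs9 rose by 1.43 ± 0.1 in AS2 against ApoE (adjusted p = 2.32e-08). Rdh12, of retinoid metabolism, rose by 0.94 ± 0.1 in AS1 against ApoE and fell by 1.10 in AS2 against AS1 (adjusted p = 7.43e-06 and 3.01e-07).

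Other genes known from resident macrophages moved in both directions. Of 18 listed, 17 had a row, of which 2 rose and 6 fell in ApoE against WT (median -0.08), beside 8.54% and 8.36% of all rows and 28.8% of rows above the 40th percentile called in either direction. Gas6, a bridging molecule for the uptake of dead cells, rose by 0.82 ± 0.049 there, and F13a1, coagulation factor XIII, fell by 0.995 ± 0.0914 (limma adjusted p = 3.3e-09 and 4.54e-07). In AS1 against ApoE 8 rose and 1 fell (median 0.30), beside 7.74% and 8.8% of all rows, with the haemoglobin receptor gene Cd163 at 0.77 ± 0.12 and the lectin gene Clec10a at 0.88 ± 0.13 (adjusted p = 0.00014 and 8.72e-05).

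In AS2 against ApoE 3 of the 17 rose and 9 fell (median -0.49), and in AS2 against AS1 1 rose and 12 fell (median -0.72). The shares called, 70.6% and 76.5%, stand beside 15.6% and 22.1% of all rows and 27% and 37.9% of rows above the 40th percentile. Cd163 fell by 1.29 ± 0.096 in AS2 against ApoE, and the folate receptor gene Folr2 rose by 1.24 ± 0.087 (limma adjusted p = 4e-08 and 1.98e-08). Stab1 of the macrophages, the gene that the AS1 plasma donors lacked, fell by 0.79 ± 0.048 in AS2 against ApoE (adjusted p = 3.39e-09) and had adjusted p = 0.134 in AS1 against ApoE.

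Rai14 was highest with ApoE plasma. It was 5.84, 5.70, 5.75 and 5.75 on the WT arrays and 7.41, 7.32, 7.14, 7.27 and 6.38 on the ApoE arrays. With AS1 plasma it was 5.34, 5.29 and 5.51, and with AS2 plasma it ranged from 6.30 through 6.51 to 6.61. ApoE replicate 5 lay within the AS2 range, and the other groups did not overlap with each other.

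The means of Rai14 were 5.76 ± 0.06 (SD, n = 4) in WT, 7.11 ± 0.42 (SD, n = 5) in ApoE, 5.38 ± 0.11 (SD, n = 3) in AS1 and 6.49 ± 0.13 (SD, n = 6) in AS2. It was 2.54-fold higher in ApoE than in WT and 3.31-fold lower in AS1 than in ApoE. AS1 was 1.30-fold below WT, with a gap of 0.19 log2 units between the nearest arrays. Without ApoE replicate 5, the ApoE minus WT difference of 1.35 was 1.53, and the AS2 minus ApoE difference of -0.62 was -0.80. AS2 arrays stood between WT and ApoE, 1.66-fold above WT.

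Lrp12 was also highest with ApoE plasma. It was 7.02, 6.89, 7.27 and 7.13 on the WT arrays and 9.38, 8.88, 9.20, 9.43 and 8.63 on the ApoE arrays. With AS1 plasma it was 7.45, 7.39 and 7.42, and with AS2 plasma it ranged from 7.61 through 7.74 to 7.85. No 2 groups overlapped, and ApoE replicate 5 was again the lowest of its group.

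The means of Lrp12 were 7.08 ± 0.16 (SD, n = 4) in WT, 9.10 ± 0.34 (SD, n = 5) in ApoE, 7.42 ± 0.03 (SD, n = 3) in AS1 and 7.72 ± 0.09 (SD, n = 6) in AS2. It was 4.07-fold higher in ApoE than in WT, and 3.21-fold and 2.61-fold lower in AS1 and AS2 than in ApoE. The steps between WT, AS1 and AS2 were small, with gaps of 0.12 and 0.16 log2 units between the nearest arrays of neighbouring groups. The root mean square difference between Rai14 and Lrp12 after centring was 0.408. In AS2 against ApoE, Rai14 was lower by 1.53-fold with overlapping arrays and Lrp12 by 2.61-fold without overlap. The macrophage marker list was lowest in ApoE, with 1 of 8 genes higher and 6 lower than in WT, where 8.54% of all rows rose and 8.36% fell. Its part in the results for Rai14 and Lrp12 was not tested.

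The genes nearest to Rai14 were Ifrd1 (0.178), the nucleolar protein gene Gnl3 (0.188) and Eprs (0.205), the glutamyl-prolyl-tRNA synthetase gene. Ifrd1 had means of 7.08 in WT, 8.65 in ApoE, 7.03 in AS1 and 7.87 in AS2. Those nearest to Lrp12 were the transcriptional repressor gene Bhlhe41 (0.206), the fatty acid-binding protein gene Fabp5 (0.232) and Aars (0.245), the alanyl-tRNA synthetase gene. Fabp5 was at 6.52, 8.57, 6.92 and 6.97 in WT, ApoE, AS1 and AS2, so that AS1 and AS2 lay near WT as for Lrp12. A tRNA synthetase gene was among the nearest 3 of both, for which no share over all rows was computed. The nearest genes were picked by their likeness, so a shared pattern of groups follows from the choice.

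**Figure D3:**
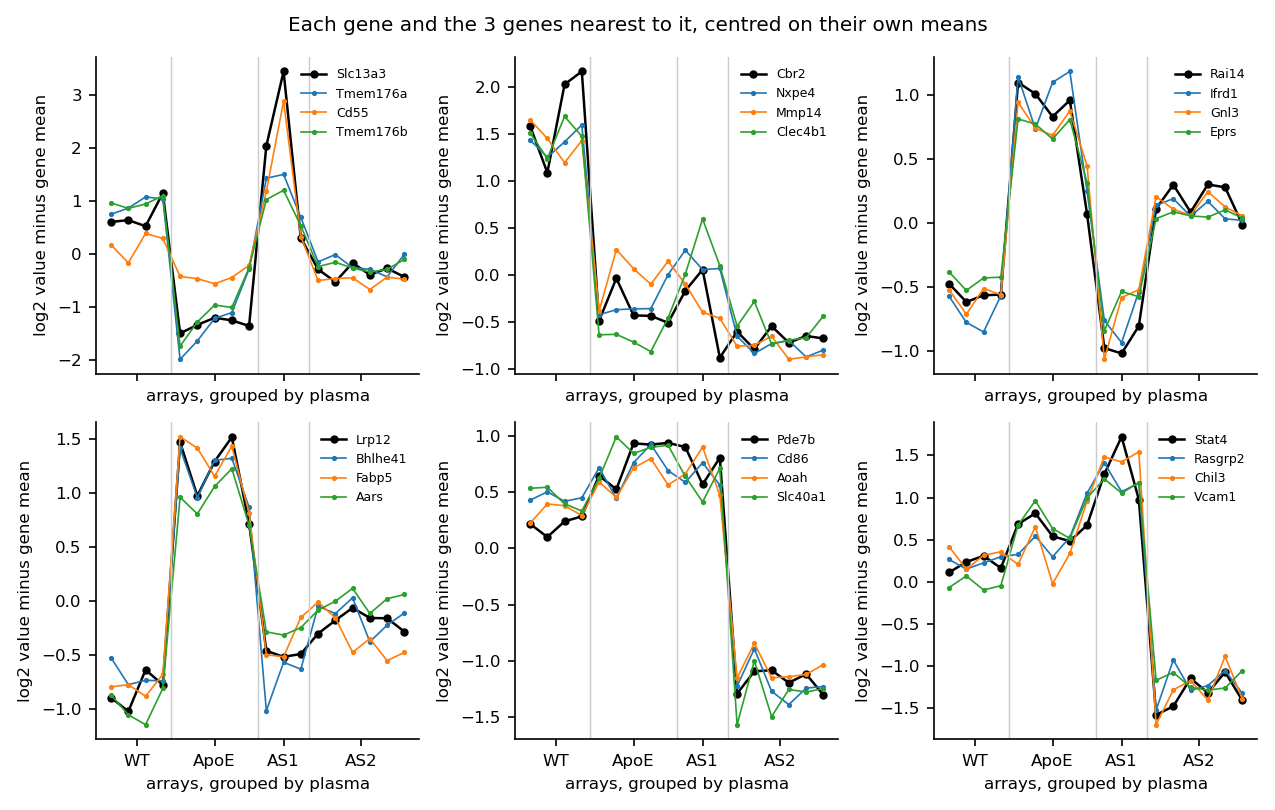
Each panel shows 1 of the 6 genes (black) and the 3 genes nearest to it (colours) as log2 values minus each gene's mean over the 18 arrays, with grey lines between plasma groups. The nearest genes of Rai14 lie within a root mean square difference of 0.178 to 0.205, whereas those of Slc13a3 are at 0.609 to 0.670.

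Of 30 genes for actin-binding and adhesion proteins, 29 had a row. In ApoE against WT 7 rose and 5 fell, and in AS1 against ApoE 8 rose and 2 fell (medians 0.02 and 0.07). Vcl, which makes the adhesion protein vinculin, rose by 0.58 ± 0.07 and the actin cross-linker gene Flna fell by 0.34 ± 0.054 in ApoE against WT (limma adjusted p = 1.07e-05 and 0.000174). In AS1 against ApoE, where Rai14 was lower, the focal adhesion genes Zyx and Vasp rose by 0.83 ± 0.079 and 0.59 ± 0.092 (adjusted p = 2.35e-06 and 0.000215), and the calponin gene Cnn2 by 0.93 ± 0.15 (adjusted p = 0.00032). In AS2 against ApoE 6 rose and 3 fell, with the tropomyosin gene Tpm1 at 1.02 ± 0.096 (adjusted p = 5.56e-07). In AS2 against AS1 7 rose and 6 fell, and Zyx fell by 0.78 (adjusted p = 8.71e-07). Over the 4 comparisons 41.4%, 34.5%, 31.0% and 44.8% of the list were called, beside 28.8%, 29.3%, 27% and 37.9% of rows above the 40th percentile.

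Of 23 listed genes of the LDL receptor family and its partners, 20 had a row. Lrp3 and Lrp10 are the closest relatives of Lrp12. Lrp3 was between 4.39 and 4.52 in all groups (limma adjusted p from 0.507 to 0.987). Lrp10 was 9.61 in WT and 9.20 in ApoE, a fall of 0.41 (adjusted p = 0.0118, and 0.0726 with the 2 groups alone). Lrp10 rose by 0.37 in AS1 against ApoE (adjusted p = 0.0408), a call that was lost in 8 settings, with adjusted p up to 0.202 without AS1 replicate 1. The list had 3 higher and 3 lower genes in ApoE against WT, and 4 and 2 in AS1 against ApoE. These are 30% of the list in both, near the 28.8% and 29.3% of rows above the 40th percentile.

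In AS2 against ApoE, 2 of these 20 genes rose and 9 fell (median -0.07), and in AS2 against AS1 again 2 rose and 9 fell (median -0.03). That is 55% of the list in both, beside 15.6% and 22.1% of all rows and 27% and 37.9% of rows above the 40th percentile. Sorl1, a sorting receptor, fell by 1.22 ± 0.093 and the Wnt co-receptor gene Lrp5 by 0.75 ± 0.067 in AS2 against ApoE (limma adjusted p = 4.34e-08 and 2.77e-07). Mylip, the ubiquitin ligase that directs LDL receptors to degradation, rose by 0.74 ± 0.067 in ApoE against WT and fell by 0.80 ± 0.061 in AS2 against ApoE (adjusted p = 3.66e-07 and 4.32e-08). Mylip thus was higher with ApoE plasma as Lrp12 was, but had adjusted p = 0.15 in AS1 against ApoE.

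Pde7b was low with AS2 plasma. It was 7.90, 7.78, 7.92 and 7.96 on the WT arrays and 8.33, 8.20, 8.61, 8.60 and 8.62 on the ApoE arrays. With AS1 plasma it was 8.58, 8.25 and 8.48, and with AS2 plasma it ranged from 6.38 through 6.52 to 6.59. The AS2 arrays lay more than a log2 unit below all others, and ApoE and AS1 overlapped.

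The means of Pde7b were 7.89 ± 0.08 (SD, n = 4) in WT, 8.47 ± 0.19 (SD, n = 5) in ApoE, 8.44 ± 0.17 (SD, n = 3) in AS1 and 6.50 ± 0.10 (SD, n = 6) in AS2. It was 3.93-fold lower in AS2 than in ApoE, 3.84-fold lower than in AS1 and 2.63-fold lower than in WT. ApoE and AS1 stood 0.58 and 0.55 log2 units above WT. The osteoclast marker list had its highest mean levels in AS2, at 6.06 to 6.47 against 5.51 to 6.04 in the other groups. In AS2 against ApoE 3 of its 8 genes (Acp5, Ctsk and Dcstamp) rose and 0 fell, where 7.59% of all rows rose and 8.02% fell. The same 3 rose in AS2 against AS1 and 2 fell, where 11.5% and 10.6% of all rows did so. Mmp9 fell there by 2.53 and Nfatc1 by 0.52 (limma adjusted p = 1.31e-05 and 2.89e-05). The part of this list in the result for Pde7b was not tested.

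Stat4 was lowest with AS2 plasma and highest with AS1 plasma. It was 6.79, 6.91, 6.99 and 6.84 on the WT arrays and 7.36, 7.49, 7.22, 7.16 and 7.35 on the ApoE arrays. With AS1 plasma it was 7.96, 8.40 and 7.65, and with AS2 plasma it ranged from 5.10 through 5.32 to 5.61. No groups overlapped, and AS1 replicate 2 was again the highest and replicate 3 the lowest of AS1.

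The means of Stat4 were 6.88 ± 0.09 (SD, n = 4) in WT, 7.32 ± 0.13 (SD, n = 5) in ApoE, 8.00 ± 0.37 (SD, n = 3) in AS1 and 5.35 ± 0.20 (SD, n = 6) in AS2. It was 3.92-fold lower in AS2 than in ApoE and 6.30-fold lower than in AS1. The gaps between the nearest arrays were 0.17 log2 units between WT and ApoE and 0.16 between ApoE and AS1. The group means of the neutrophil list, 7.37 in AS2, 7.69 in WT, 8.02 in ApoE and 9.33 in AS1, had the same order as those of Stat4. Mpo, Elane, Prtn3 and Ctsg departed from that order, with higher means in AS2 than in WT. Camp and Ly6g did so too, with lower means in ApoE than in WT. All 13 neutrophil markers rose in AS1 against ApoE, and all 13 fell in AS2 against AS1, where 7.74% and 10.6% of all rows did so. In ApoE against WT 2 of the 13 rose and 0 fell, where 8.54% of all rows rose and 8.36% fell. In AS2 against ApoE 0 rose and 7 fell, where 7.59% of all rows rose and 8.02% fell. The T and NK cell list, for cells in which Stat4 is well known, had means of 4.61 in AS2, 4.60 in WT, 4.78 in ApoE and 4.81 in AS1. In ApoE against WT, 3 of its 15 genes rose and 0 fell, where 8.54% of all rows rose and 8.36% fell. Cd4 and Il7r of that list rose by 1.19 and 1.47 there (limma adjusted p = 6.75e-05 and 2.75e-09). In AS2 against AS1, 1 of the 15 rose and 3 fell, where 11.5% and 10.6% of all rows did so. Cd4 fell there by 1.90 and Il7r rose by 0.56 (adjusted p = 6.41e-07 and 0.000165). Klrd1 and Nkg7 of the list also fell there, by 0.54 and 0.61 (adjusted p = 0.000226 and 0.000542). In AS1 against ApoE, 2 of the 15 rose and 1 fell, where 7.74% and 8.8% of all rows did so. Klrd1 and Nkg7 rose there by 0.36 and 0.55, and Il7r fell by 0.95 (adjusted p = 0.0118, 0.00238 and 2.99e-06). The means of Cd4 were 6.67 in WT, 7.86 in ApoE, 8.10 in AS1 and 6.20 in AS2. The T cell receptor complex genes Cd3d, Cd3e and Cd3g, with Cd8a and Zap70, were at 3.77 to 4.15 in all groups. The part of these cells in the result was not tested.

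The promoters of Pde7b and of the first Stat4 start, shown with the same capitals, had no motif in common.
Pde7b, chr10:20548329-20548578, minus strand: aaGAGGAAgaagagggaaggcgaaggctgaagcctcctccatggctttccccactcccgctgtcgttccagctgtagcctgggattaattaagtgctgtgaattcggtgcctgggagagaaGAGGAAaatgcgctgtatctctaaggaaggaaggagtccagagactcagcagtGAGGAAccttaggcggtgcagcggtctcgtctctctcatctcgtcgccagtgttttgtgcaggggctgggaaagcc
Stat4, chr1:51986898-51987147, plus strand: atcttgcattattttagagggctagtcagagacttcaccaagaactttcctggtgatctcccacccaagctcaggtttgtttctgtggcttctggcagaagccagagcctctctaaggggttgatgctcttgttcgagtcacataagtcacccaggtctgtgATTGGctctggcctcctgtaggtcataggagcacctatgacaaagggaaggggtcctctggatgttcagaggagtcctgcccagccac
Pde7b had 3 PU.1 sites within its 250 bases, a motif of the macrophage factor PU.1 found in 23.3% of promoters, and no other match. The first start of Stat4 had 1 CCAAT box on the opposite strand, at bases -88 to -84, a motif found in 33.8% of promoters. The second start of Stat4 had no match to the 8 motifs, the STAT site among them.

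The genes nearest to Pde7b were the costimulatory receptor gene Cd86 (0.197), Aoah (0.205), whose enzyme inactivates bacterial lipopolysaccharide, and the iron exporter gene Slc40a1 (0.229). Cd86 had means of 8.67 in WT, 8.93 in ApoE, 8.86 in AS1 and 7.01 in AS2. Those nearest to Stat4 were Rasgrp2 (0.267), the chitinase-like gene Chil3 (0.275) and the adhesion molecule gene Vcam1 (0.278). Rasgrp2 was at 6.63, 6.95, 7.62 and 5.18 in the same groups. Of all 15 pairs among the 6 genes, Pde7b and Stat4 were the nearest, at 0.358.

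Other genes of cyclic AMP metabolism moved in both directions with AS2 plasma. Of 39 listed, 35 had a row, of which 7 rose and 11 fell in AS2 against ApoE (median -0.04), 51.4% of the list beside 15.6% of all rows and 27% of rows above the 40th percentile. Pde7a, the closest relative of Pde7b, rose by 0.47 in ApoE against WT (6.36 to 6.83) and fell by 0.25 in AS2 against ApoE (limma adjusted p = 0.00014 and 0.0125). The second call was lost without ApoE replicates 2 and 5 together (adjusted p = 0.0829). Pde8a fell by 0.36 (adjusted p = 0.000933) and Pde3b by 0.81 ± 0.053 (adjusted p = 8e-09) in AS2 against ApoE. The adenylate cyclase gene Adcy7, which makes cyclic AMP, and the prostaglandin E2 receptor gene Ptger4 rose by 0.67 ± 0.058 and 1.06 ± 0.12 there (adjusted p = 2.33e-07 and 6.4e-06).

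In ApoE against WT 5 of the 35 rose and 9 fell, and in AS1 against ApoE 8 rose and 0 fell. Ptger4 fell by 1.55 ± 0.14 in the first and rose by 0.95 ± 0.15 in the second (limma adjusted p = 3.06e-07 and 0.000222). In AS2 against AS1 2 rose and 11 fell, with Pde2a lower by 1.03 ± 0.084 (adjusted p = 1.08e-07). The list's shares called in these 3 comparisons, 40%, 22.9% and 37.1%, stand beside 28.8%, 29.3% and 37.9% of rows above the 40th percentile, so the last is near background and the second below it.

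Of 29 listed genes of STAT and interleukin-12 signalling, 28 had a row. In AS2 against AS1, where Stat4 was 6.30-fold lower, 0 rose and 12 fell (limma, median -0.13), where 11.5% of all rows rose and 10.6% fell. The share called was 42.9% of the list, beside 22.1% of all rows and 37.9% of rows above the 40th percentile. The ligand gene Il18 fell by 0.96 ± 0.094 and the interleukin-18 receptor gene Il18rap by 0.96 ± 0.11 (adjusted p = 7.32e-07 and 4.99e-06). In AS2 against ApoE 2 rose and 6 fell, 28.6% of the list and near the 27% of rows above the 40th percentile, and Il12rb2, a chain of the interleukin-12 receptor, fell by 0.75 ± 0.1 (adjusted p = 2.68e-05). Il12rb1, the other chain, was 4.35 in ApoE and 4.21 in AS2 (adjusted p = 0.117), both below the median value of all rows, 4.37. Il12rb1 fell by 0.21 in AS2 against AS1 (adjusted p = 0.0269). That call was lost without AS1 replicate 1, AS1 replicate 3 or AS2 replicate 4 (adjusted p = 0.0927, 0.13 and 0.0529).

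In AS1 against ApoE 8 of the 28 rose and 0 fell, 28.6% of the list and near the 29.3% of rows above the 40th percentile. Among them were the kinase genes Tyk2 and Jak3, higher by 0.48 ± 0.071 and 0.75 ± 0.13 (limma adjusted p = 0.000116 and 0.000395). In ApoE against WT 3 rose and 8 fell, 39.3% of the list beside 28.8%, and Tyk2 fell by 0.44 ± 0.065 (adjusted p = 8.69e-05) whereas Stat4 was 1.35-fold higher. Stat3 was 9.54 in WT, 9.50 in ApoE, 9.69 in AS1 and 9.57 in AS2, and rose by 0.19 in AS1 against ApoE (adjusted p = 0.0191, and 0.0915 without AS1 replicate 1 or 0.0608 without AS1 replicate 2). Ifng and Tbx21, which Stat4 drives in lymphocytes, were between 3.98 and 4.08 and between 4.48 and 4.62, with adjusted p from 0.51 to 0.935. The means of Ifng lay below the median value of all rows, 4.37, so a change in it could have gone unseen.

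**Figure D4:**
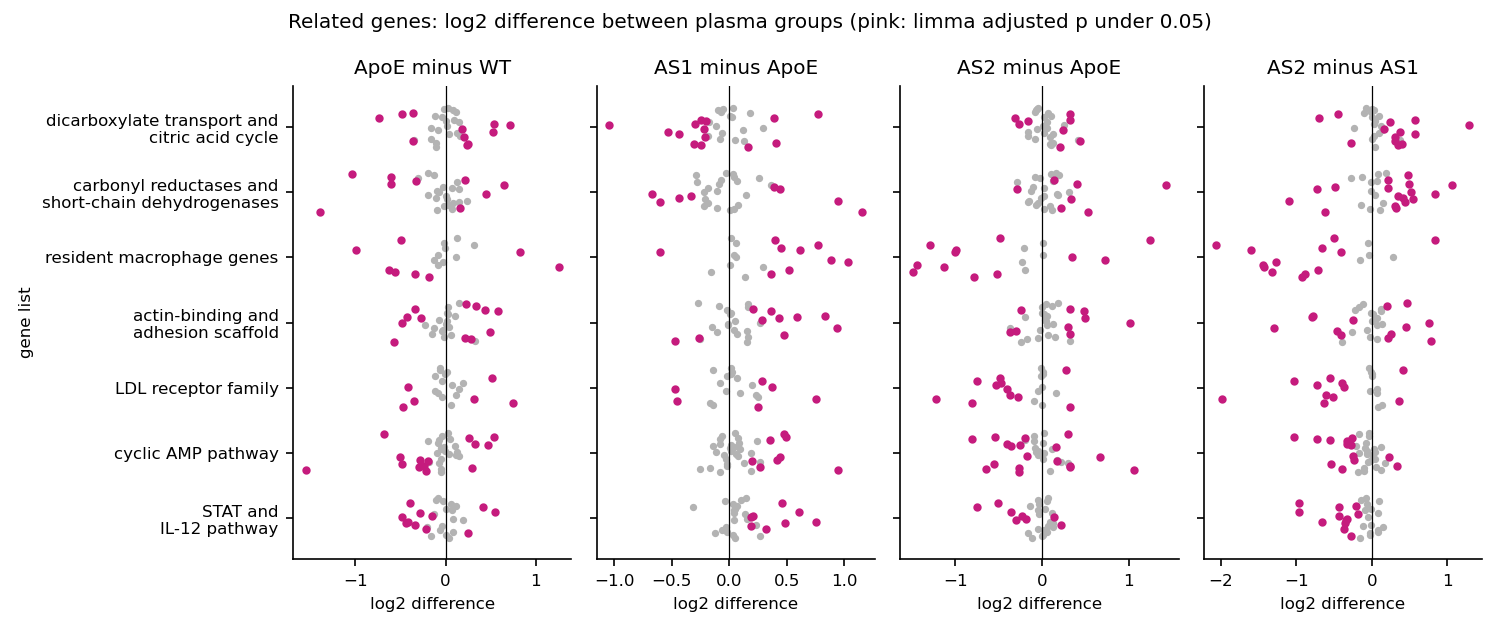
Each point is 1 gene of the 7 lists of related genes, placed by its log2 difference in the comparison named above the panel. Pink points passed the limma test with adjusted p under 0.05 and grey points did not. In AS2 against AS1 the resident macrophage list has 1 of 17 genes higher and 12 lower (76.5% called). The STAT and interleukin-12 list has 0 of 28 higher and 12 lower (42.9% called). Of all rows 11.5% rose and 10.6% fell there, and 37.9% of rows above the 40th percentile of row means were called.

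Across the 4 comparisons, 188 related genes of the 7 lists had a row. Of these, 31 rose and 40 fell in ApoE against WT, 44 and 19 in AS1 against ApoE, 31 and 42 in AS2 against ApoE, and 35 and 57 in AS2 against AS1. The shares called, 37.8%, 33.5%, 38.8% and 48.9%, stand beside 16.9%, 16.5%, 15.6% and 22.1% of all rows and 28.8%, 29.3%, 27% and 37.9% of rows above the 40th percentile. With a fit of the compared groups alone, 41 rather than 63 passed in AS1 against ApoE.

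The separation of the groups can be counted over the 6 genes. For ApoE against WT all 6 had arrays that did not overlap, 4 higher and 2 lower, where 14.3% of all rows did not overlap, 7.4% higher and 6.9% lower. For AS1 against ApoE 4 of 6 did not overlap, 2 higher and 2 lower, where 18.2% of rows did not, 9.04% higher and 9.2% lower, the exceptions being Cbr2 and Pde7b. For AS2 against ApoE 5 of 6 did not, 1 higher and 4 lower, where 10.9% of rows did not, 5.44% higher and 5.48% lower, the exception being Rai14. In AS2 against AS1 5 of 6 did not overlap, 2 higher and 3 lower, where 23.9% of rows did not, 12.3% higher and 11.6% lower. In AS1 against WT 5 of 6 did not overlap, 3 higher and 2 lower, where 18.1% of rows did not, 8.77% higher and 9.38% lower. In AS2 against WT 6 of 6 did not overlap, 2 higher and 4 lower, where 17% of rows did not, 8.41% higher and 8.59% lower. The genes were picked for such differences, so these counts carry no support.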

How the data were processed

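Biotin-labelled cRNA of 18 samples was hybridised to Affymetrix arrays, per the labels' protocols. The authors deposited log2 values made with RMA (background correction, quantile normalization and probe summary), per the submitters' processing notes; the sources used here name neither its version nor the probe sets. ApoE replicate 1 holds 23506 distinct values, against 7032 to 7049 on the other arrays, and the reason is not given in the labels; each comparison with ApoE was also computed without it. Equalised arrays hide a change in total RNA per cell. Of 25428 rows, 24705 had exactly 1 symbol in GEO's platform annotation, 0 several, and 723 stay unnamed. Precision is limited by the number of arrays.

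limma 3.58.1 in R 4.3.3 fitted 4 group means to the 24705 rows (lmFit, eBayes, 14 residual degrees of freedom), with two-sided tests and Benjamini-Hochberg adjustment over all rows at 0.05; they weigh differences against the spread among arrays alone, which may be technical. The script was tested on simulated data. The 6 genes, the 7 lists of related genes and the 6 marker lists were chosen with earlier results of these data known, and the 8 motifs after the values were seen. Named were fixed close relatives, up to 3 genes with the smallest p per list and comparison, and the 3 nearest genes of each of the 6, passing over predicted and small RNA genes; the text prints part of them. List genes without a row were not analysed here. Promoters came from RefSeq (GRCm38.p6). Gene coordinates were not used here.

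Alternatives were all rows, rows above the 40th percentile of means only, renewed quantile normalization, median centring, trended robust variance, weights per array, a fit of just the groups compared, a replicate block, each array left out, ApoE replicates 2 and 5 left out together, and group medians.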

Additional observations from a re-analysis of the deposited data

Results flagged for a closer look

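Within groups of 4 to 6 arrays, 18 combinations of gene and group were examined for 1 array far from the rest of its group, by Dixon's ratio, and 2 stood out. For Cbr2, ApoE replicate 2 was at 5.27 while the other 4 ApoE arrays were at 4.80 to 4.88. For Rai14, ApoE replicate 5 was at 6.38 while the other 4 were at 7.14 to 7.41. Chance marks about 1 in 20 such groups. AS1, with 3 arrays, was too small to be examined this way.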

How the results depend on the processing

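All 108 recomputed counts of rows past the threshold stayed within 1.5 times the main count, under each setting run. With the replicate number as a block, 3945 rows passed in ApoE against WT, 3748 in AS1 against ApoE, 3475 in AS2 against ApoE and 4874 in AS2 against AS1, against 4177, 4088, 3857 and 5467 without it. Same-numbered arrays did not deviate together (r from -0.140 to 0.133 across genes), so the numbers were not taken to pair the arrays. Of 108 recomputed counts of related genes, 1 moved by over 1.5 times, to 41 from 63 in AS1 against ApoE with the 2 compared groups alone. Differences of the 6 genes stayed within 1 SD of their main value in 365 recomputations and moved further in 1. That was Cbr2 in AS2 against AS1, at -0.61 without AS1 replicate 3, with a range from -0.61 to -0.14 over arrays left out. The SD was pooled over the 2 compared groups and included any array left out. Leaving out 1 array could therefore seldom move a difference that far, so the 365 are no measure of stability. The differences between AS1 and ApoE of Cbr2 (0.05) and Pde7b (-0.03) are near 0 and changed sign in 2 and 4 settings. Cbr2 was at -0.03 without AS1 replicate 1 and -0.14 without AS1 replicate 2. Pde7b was at 0.01 with the replicate block. Of the calls of named related genes, 156 recomputed values lost the threshold and 50 gained it, while 6794 kept their side of it. None of these reversed.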
